A study of Mus musculus with 9 samples.

Results

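The 8 genes described here encode CTCF and the cohesin complex in mouse: *Ctcf*, *Rad21*, *Smc1a*, *Smc3*, *Stag1*, *Stag2*, *Nipbl* and *Wapl*. They were chosen by name, and all 8 had rows in all 9 libraries of the series, with 3068 UMIs (*Stag2*) to 11183 UMIs (*Smc3*) each over all kept cells. The series profiled single cells of the neocortex at E18.5, as 1 library for each embryo, and 5 libraries are labelled wildtype (WT) and 4 *Tcf4* knockout (KO). WT and KO embryos were littermates from breedings of mice with the Tcf4ex4WT/lacZ allele, a knockout-first allele with a lacZ and neomycin cassette ahead of exon 4; KO embryos were homozygous, and per the paper the cassette removes the longest form of the transcription factor TCF4 and leaves shorter forms. WT2, WT3 and WT4 were compared with KO4 and KO5, and values below stand in that order. *Tcf4* was measured at 12.2, 12.6 and 12.2 UMIs per 10000 UMIs in the WT and at 9.29 and 7.59 in the KO libraries; UMIs come from the 3′ end, outside the changed part of the gene, so this level is no check of the allele. WT1, KO1 and KO2 had 126, 331 and 118 kept cells. WT5 had a *Tcf4* level of 7.20, below both compared KO libraries, and the authors left it out; in KO1 the level was 16.7, above all WT libraries.

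Cohesin is a ring of the ATPases SMC1A and SMC3 closed by the kleisin RAD21, to which STAG1 or STAG2 binds. NIPBL loads the ring on DNA and drives the extrusion of loops, WAPL releases it, and the zinc finger protein CTCF stops it at its binding sites, which sets the borders of chromatin domains. In dividing cells the same ring holds sister chromatids together until anaphase, when separase cuts RAD21, and in postmitotic neurons cohesin and CTCF are known for their part in gene expression. Mutations of *NIPBL*, *SMC1A*, *SMC3* or *RAD21* cause Cornelia de Lange syndrome in humans.

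On GRCm38 (GENCODE vM21), *Ctcf* lies at chr8:105636568-105682922, *Rad21* at chr15:51962240-51991747, *Smc1a* at chrX:152016428-152062694, *Smc3* at chr19:53600398-53645833, *Stag1* at chr9:100597798-100959375, *Stag2* at chrX:42149317-42277185, *Nipbl* at chr15:8290617-8444463 and *Wapl* at chr14:34673928-34747983. *Rad21* and *Nipbl* are on the minus strand and the others on the plus strand. *Ctcf* overlaps *Agrp* on the other strand and *Stag1* overlaps short predicted gene models on its own strand, so some of its UMIs could belong to either. UMIs were counted over whole genes, and isoforms were not told apart.

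RefSeq promoter sequences on GRCm38.p6 were held for 5 of the 8 members. TCF4 binds E-boxes, so the 250 bases before the start were searched for CANNTG, which reads the same on both strands. *Smc1a* and *Smc3* had 1 match each and *Ctcf*, *Stag1* and *Wapl* had 0, while 66.2% of 32851 promoters of all genes had at least 1 match. GC content of these 250 bases was 56.8% for *Smc1a*, 64.4% for *Smc3*, 77.6% for *Ctcf*, 71.2% for *Stag1* and 67.6% for *Wapl*, against a median of 52.4% for all genes. TTTGAA, an element known from promoters of cell cycle genes, was searched on both strands too, and *Ctcf* had 1 match and the other 4 had 0, against 16.0% of all promoters with a match. A match describes letters only. The last 150 bases before the start of *Smc1a*, *Ctcf* and *Wapl* are shown because *Smc1a* had the largest log2 difference in the cycling gate, *Ctcf* is the DNA-binding member and *Wapl* was the member that was not lower; capitals mark CANNTG, and the positions are chrX:152016278-152016427, chr8:105636388-105636537 and chr14:34673778-34673927, all on the plus strand.
Smc1a: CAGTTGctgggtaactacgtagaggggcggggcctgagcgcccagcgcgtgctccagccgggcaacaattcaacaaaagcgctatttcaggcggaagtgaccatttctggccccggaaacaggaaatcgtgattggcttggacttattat
Ctcf: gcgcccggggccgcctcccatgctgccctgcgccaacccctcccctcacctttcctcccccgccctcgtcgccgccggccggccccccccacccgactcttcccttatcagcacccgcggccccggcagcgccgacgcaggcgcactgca
Wapl: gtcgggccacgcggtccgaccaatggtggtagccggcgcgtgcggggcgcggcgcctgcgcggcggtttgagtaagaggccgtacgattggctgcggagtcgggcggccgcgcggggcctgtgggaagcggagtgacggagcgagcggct

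Cells were placed in classes by marker genes, in a fixed order of gates. A cell with UMIs of at least 4 of 12 cycling genes (*Top2a*, *Mki67*, *Cdk1* and others) was placed in the cycling gate, and a cell with at least 3 of 10 deep layer genes (*Fezf2*, *Tbr1* and others) and 1 of 5 glutamatergic genes (*Neurod2*, *Neurod6* and others), not taken by an earlier gate, was placed in the deep layer gate. Cells that met gates of conflicting types were left out. Levels are the mean over cells of UMIs per 10000 UMIs of the cell, and a class was used where a library had at least 20 of its cells. The 5 libraries had 70, 68, 751, 622 and 321 deep layer cells, 154, 195, 484, 362 and 162 cells of the cycling gate, and 26, 33, 681, 68 and 49 interneurons. Median depth per kept cell was 2478.5, 3636 and 4359 UMIs in the WT and 2290 and 2217 UMIs in the KO libraries. The KO libraries lost 13.9% and 40.4% of their cells to a limit of 1% haemoglobin UMIs, against 0.421% to 1.34% in the WT libraries. KO5 had UMIs of 4 Y-linked genes and no *Xist* and the other 8 libraries had *Xist* and no UMI of those genes, so the X-linked members *Smc1a* and *Stag2* were compared between female WT embryos and 1 female and 1 male KO embryo. Cell barcodes shared by libraries came to at most 2.5% of the smaller library.

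In the KO libraries the deep layer gate held more transcripts of several other cell types, though not of all. The summed level of 5 glutamatergic genes in it was 20.2 to 24.3 in the WT and 15.2 to 15.9 in the KO libraries, while that of 10 radial glia and astrocyte genes was 7.10 to 9.44 against 18.8 to 20.5. The endothelial list was at 0.132 to 0.336 against 0.617 to 1.38 and the microglia list at 0.0177 to 0.123 against 0.533 to 0.654, with 6 of 8 genes of each list higher in both KO libraries than in every WT library. WT5 lay with the KO libraries in these lists, at 14.5, 16.4, 0.997 and 0.593. Their part in the differences between genotypes given here was not tested.

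By class, *Rad21*, the subunit that separase cuts, stood out most in the cycling gate. Its level there was 2.92 in WT2, 2.45 in WT3 and 1.997 in WT4 (mean 2.46 ± 0.461 SD, n = 3), and the next class in order, the oligodendrocyte lineage, had 1.21 ± 0.303 (SD, n = 2). The other 7 classes with values in at least 2 WT libraries were between 0.397 in Cajal-Retzius cells and 0.958 in endothelial cells. The ranges of neighbours in this order overlapped from the oligodendrocyte lineage down to radial glia or astrocytes, whose level was 0.720 ± 0.00883 (SD, n = 3). The range of Cajal-Retzius cells lay below that of radial glia or astrocytes.

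*Smc1a* and *Stag1* were also highest in the cycling gate, with ranges that did not overlap that of the next class, intermediate progenitors. *Smc1a* was at 2.66 ± 0.241 (SD, n = 3) in the cycling gate and 1.80 ± 0.455 (SD, n = 3) in intermediate progenitors, and *Stag1* at 1.21 ± 0.138 and 0.906 ± 0.0851 (SD, n = 3 each). *Stag1* was low in deep layer neurons (0.546 ± 0.109, SD, n = 3) and endothelial cells (0.4995 ± 0.0112, SD, n = 2). *Ctcf* was at 1.29 ± 0.0984 (SD, n = 3) in the cycling gate, again without overlap with the next class, and between 0.640 and 0.963 in the other 8 classes. In 1 of the 7 neighbouring pairs below the cycling gate, oligodendrocyte lineage against radial glia or astrocytes, the ranges of *Ctcf* did not overlap. Classes further apart in the order could also lie apart. Newborn neurons ranged from 0.836 to 1.10, above radial glia or astrocytes at 0.679 to 0.823.

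*Smc3*, *Stag2*, *Nipbl* and *Wapl* did not set the cycling gate apart. *Smc3* had 2.71 ± 0.545 (SD, n = 2) in the oligodendrocyte lineage and 2.66 ± 0.418 (SD, n = 3) in the cycling gate, and 1.69 ± 0.216 (SD, n = 3) in deep layer neurons. *Stag2* had 0.902 ± 0.197 in the cycling gate, 0.861 ± 0.434 in intermediate progenitors and 0.759 ± 0.184 in radial glia or astrocytes, and 0.341 ± 0.134 in deep layer neurons (SD, n = 3 each). The range of *Stag2* in radial glia or astrocytes did not overlap that of newborn neurons (0.515 ± 0.0557, SD, n = 3), and below newborn neurons all neighbours overlapped. The loader gene *Nipbl* had its cycling gate in the fifth place of 9, at 1.21 ± 0.228 (SD, n = 3), below intermediate progenitors at 1.46 ± 0.104 (SD, n = 3), and its lowest level in Cajal-Retzius cells (0.472 ± 0.158, SD, n = 2). For *Wapl* the ranges of all neighbours in the order overlapped, from 0.958 ± 0.382 (SD, n = 2) in the oligodendrocyte lineage to 0.416 ± 0.0908 (SD, n = 3) in deep layer neurons.

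**Figure D1:**
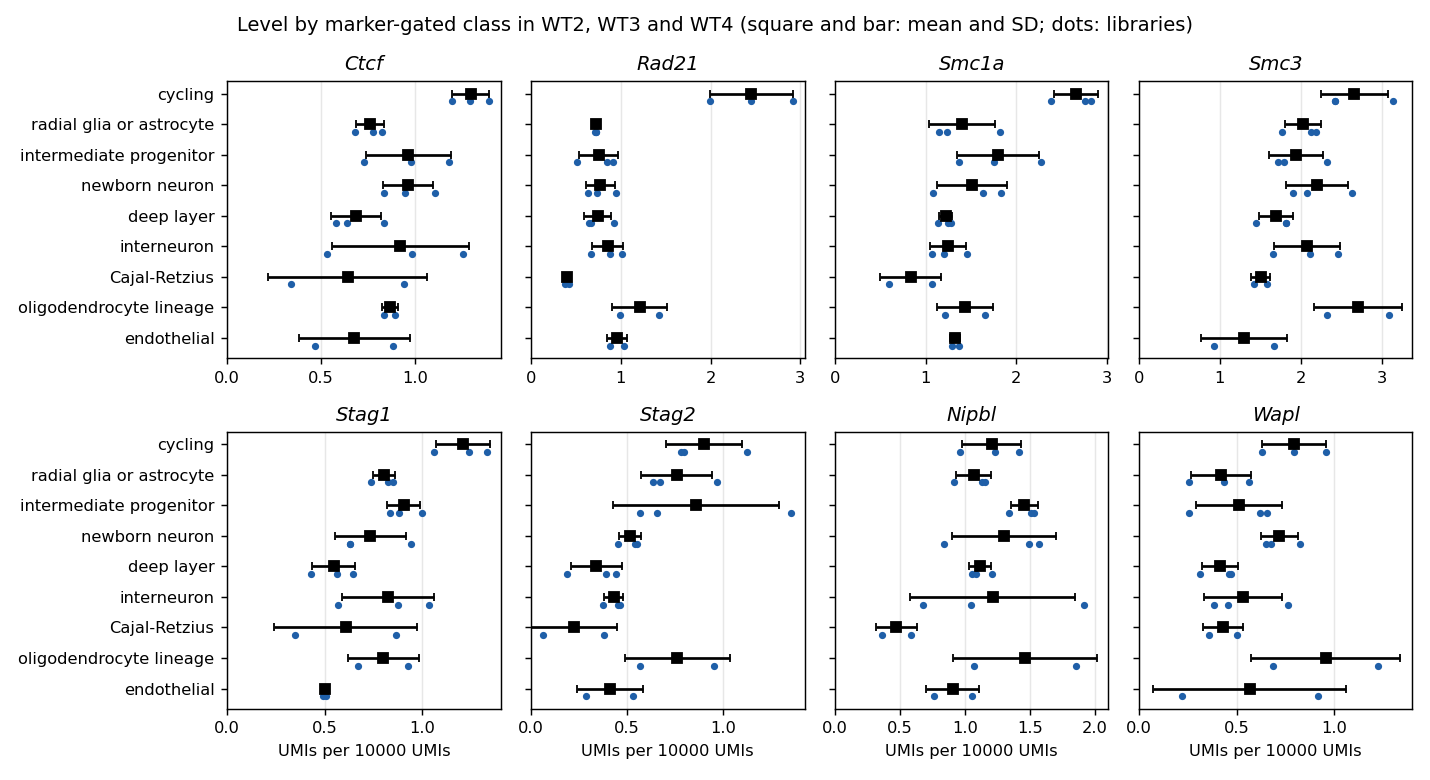
Level of each member (UMIs per 10000 UMIs of a cell, x axis, a separate scale for each gene) in 9 marker-gated classes (y axis) of WT2, WT3 and WT4; squares and bars are the mean and SD over libraries and dots the libraries. *Rad21* is at 2.46 in the cycling gate and at 1.21 or lower in the other 8 classes, while *Wapl* and *Nipbl* overlap across most classes.

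Across these 9 classes, the 5 genes with the pattern most like *Rad21* of 1619 compared were *Smc4* (r = 0.94), *Lmnb1* (0.93), *Smc2* (0.92), *H2afz* (0.92) and *Hmgb2* (0.92). *Smc2* and *Smc4* are the ATPases of condensin, and *Hmgb2* is 1 of the 12 genes that set the cycling gate. For *Ctcf* they were *Snrpc* (r = 0.94), *Lsm8* (0.93), *Supt16* (0.93), *H1f0* (0.92) and *Tmpo* (0.91). Among the members, *Ctcf* and *Stag1* were the pair most alike (r = 0.91) and *Stag1* and *Wapl* the least (r = 0.46). All of these are Pearson correlations of log2(level + 0.5) over the same 9 classes, which share libraries and differ in depth.

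In deep layer neurons, which are postmitotic, the members are described by their levels, with no test. *Nipbl* had 1.05, 1.21 and 1.08 in the WT and 0.548 and 0.533 in the KO libraries. *Smc3* had 1.44, 1.82 and 1.82 against 1.20 and 0.954, and *Smc1a* had 1.14, 1.25 and 1.28 against 0.960 and 0.957. For these 3 of 8 members both KO libraries lay below all WT libraries, as they did for 24.1% of all genes. *Wapl*, the gene for the release factor, had its KO values above the WT values, with 0.312, 0.474 and 0.463 against 0.644 and 0.518. These values rest on 6, 12 and 179 UMIs in the WT and on 112 and 47 in the KO libraries. The share of all genes higher without overlap was not counted.

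The other 4 members overlapped between genotypes in deep layer neurons. *Ctcf* had 0.580, 0.639 and 0.836 in the WT and 0.674 and 0.620 in the KO libraries. *Rad21* had 0.671, 0.919 and 0.640 against 0.663 and 0.650. *Stag1* had 0.430, 0.645 and 0.565 against 0.548 and 0.250, with KO5 the lowest library, and *Stag2* had 0.189, 0.442 and 0.392 against 0.394 and 0.352, with WT2 the lowest. WT5, labelled WT, had *Nipbl* at 0.604, *Smc3* at 1.22, *Smc1a* at 0.912 and *Wapl* at 0.525. Each was outside the range of the compared WT libraries on the side of the KO libraries.

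**Figure D2:**
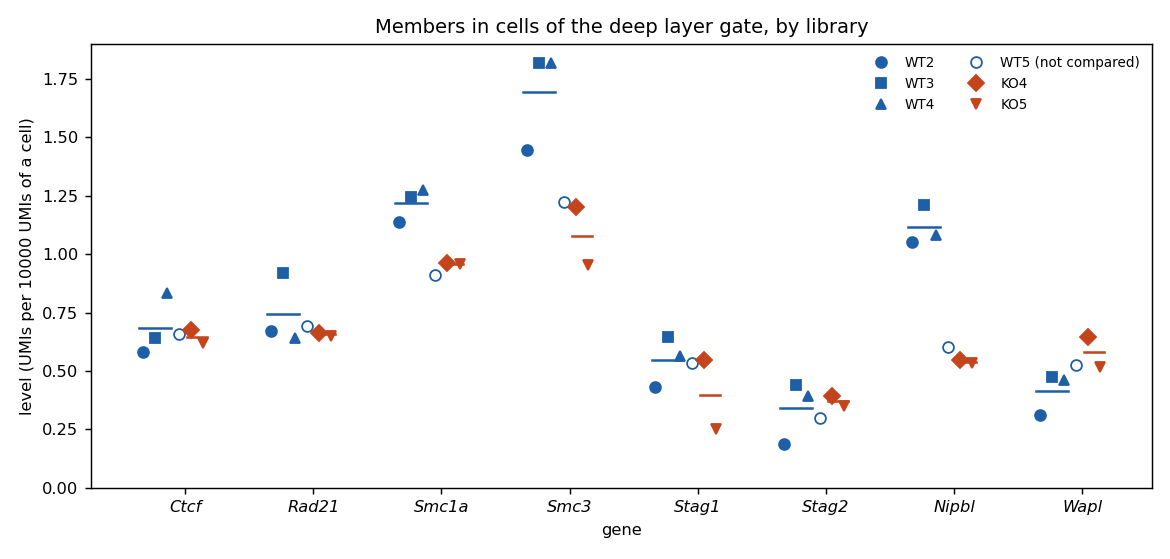
Level of each member (y axis, UMIs per 10000 UMIs of a cell) in cells of the deep layer gate by library; filled symbols are the compared libraries, open symbols WT5, and lines the means of WT2-4 and of KO4-5. *Nipbl*, *Smc3* and *Smc1a* of KO4 and KO5 sit below all 3 WT libraries and *Wapl* above them.

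The gate for interneurons, which the cortex receives from the ventral forebrain, gave no member called between genotypes. It held as few as 26 cells in WT2, with 2 to 516 UMIs of a member in a library. *Stag1* had 0.570, 1.03 and 0.878 in the WT and 0.257 and 0.238 in the KO libraries, from 4 and 3 UMIs in KO4 and KO5, with a log2 difference of -0.81 ± 0.28 (SE, adjusted p = 0.198). *Nipbl* had 1.92, 0.673 and 1.05 against 0.356 and 0.544 (-0.79 ± 0.28, SE, adjusted p = 0.225) and *Smc3* 1.66, 2.46 and 2.12 against 1.13 and 1.07 (-0.68 ± 0.25, SE, adjusted p = 0.270). These 3 members did not overlap and had an unadjusted p under 0.05; among all 8898 genes 17.6% were lower without overlap and 1% were called. The other 5 members had log2 differences between -0.36 and 0.11 with SEs of 0.27 to 0.28. edgeR and DESeq2 called 0 members, with 3 and 0 at an unadjusted p under 0.05. Without WT2, *Stag1* was called. The 6 Dlx and Gad genes and 12 interneuron genes are among those that set this gate. The Dlx and Gad genes summed to 14.6 to 16.7 in the WT and 8.81 to 9.31 in the KO libraries. The interneuron genes summed to 10.4 to 14.9 against 5.90 to 6.74, with 8 of 12 lower without overlap and WT5 at 6.66. The 5 glutamatergic genes summed to 3.93 to 8.35 in the WT and 12.8 to 13.8 in the KO libraries, with 4 of 5 higher without overlap, among them *Neurod6* at 4.26, 3.47 and 1.81 against 7.22 and 7.16. The 8 microglia genes summed to 0 to 0.0695 against 0.627 to 0.847, with 4 of 8 higher, and the 7 haemoglobin genes to 6.69 to 10.6 against 36.4 to 72.2, and the 4 of them tested were called higher by limma. Their part in the members' differences was not tested.

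In the cycling gate, 7 of 8 members were called lower in the KO libraries, against 14.8% of all 8796 genes called in either direction. *Rad21* had 2.92, 2.45 and 1.997 in the WT and 0.976 and 0.888 in the KO libraries, a log2 difference of -1.03 ± 0.17 (SE, adjusted p = 0.000124). *Smc1a* had 2.76, 2.83 and 2.38 against 1.11 and 0.966 (-1.04 ± 0.16, SE, adjusted p = 7.48e-05). For both genes the lowest WT library was above the higher KO library by more than the spread of either group.

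The ring subunit *Smc3* had 2.42, 3.15 and 2.43 in the WT and 1.34 and 1.28 in the KO libraries (-0.80 ± 0.16, SE, adjusted p = 0.00154). *Stag1* had 1.24, 1.33 and 1.06 against 0.728 and 0.380 (-0.71 ± 0.16, SE, adjusted p = 0.00396), and *Stag2* had 0.795, 1.13 and 0.781 against 0.553 and 0.198 (-0.70 ± 0.17, SE, adjusted p = 0.00745). KO5, the male library, was the lower of the KO libraries for both. It was also the lower one for *Rad21*, *Smc1a*, *Smc3* and *Nipbl*, and the higher one for *Ctcf* and *Wapl*. *Smc1a* and *Stag2* are X-linked, and the part of sex was not tested.

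*Ctcf* had 1.39, 1.20 and 1.29 in the WT and 0.631 and 0.735 in the KO libraries (-0.60 ± 0.15, SE, adjusted p = 0.00885). *Nipbl* had 0.965, 1.42 and 1.23 against 0.744 and 0.622 (-0.52 ± 0.16, SE, adjusted p = 0.0270). *Wapl* had 0.629, 0.958 and 0.796 against 0.766 and 0.785, with the KO libraries inside the WT range (-0.01 ± 0.15, SE, adjusted p = 0.966). edgeR called 5 of the 7 (not *Stag2* and *Nipbl*), DESeq2 called 3 (*Rad21*, *Smc1a* and *Smc3*), and limma called 5 with cells thinned to 1800 UMIs (not *Ctcf* and *Nipbl*). The 7 called members did not overlap between groups, as held in this direction for 31.3% of all genes.

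**Figure D3:**
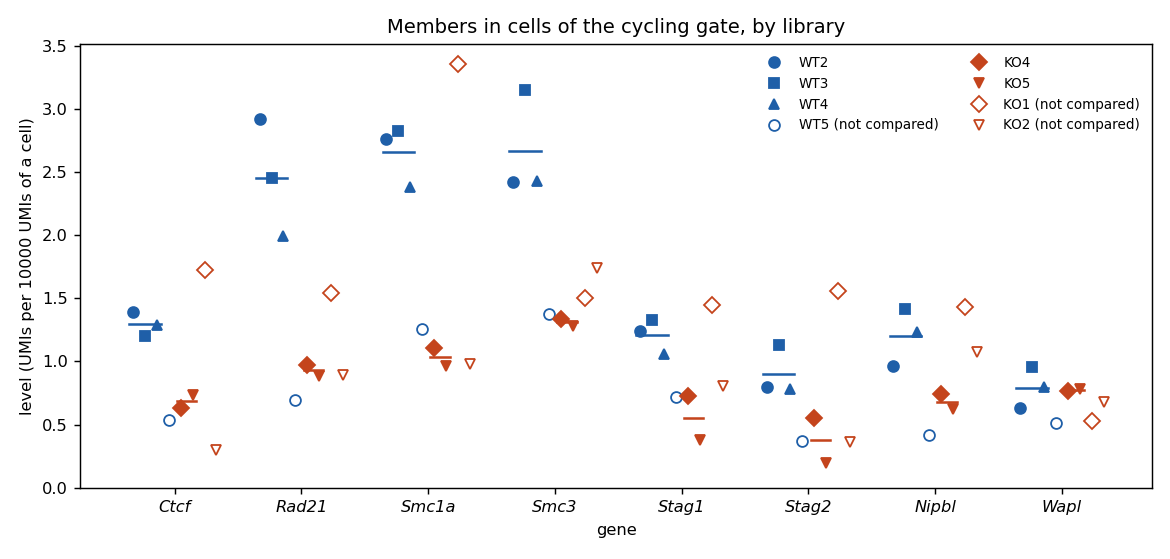
Level of each member (y axis, UMIs per 10000 UMIs of a cell) in cells of the cycling gate by library, with symbols and lines as in the plot of deep layer cells and KO1 and KO2 added. KO4 and KO5 lie below WT2, WT3 and WT4 for all members but *Wapl*. WT5 lies below WT2, WT3 and WT4 for all members, and below KO4 and KO5 as well for *Ctcf*, *Rad21*, *Nipbl* and *Wapl*. KO1 lies above all WT libraries for *Ctcf*, *Smc1a*, *Stag1*, *Stag2* and *Nipbl*. For *Rad21*, *Smc3* and *Wapl* KO1 lies below WT2, WT3 and WT4. Shares of all genes for WT5 and KO1 were not counted.

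These calls rested on the choice of libraries. WT5 had *Rad21* at 0.696, *Smc1a* at 1.26, *Smc3* at 1.38 and *Ctcf* at 0.538, and was below every compared WT library for 8 of 8 members. It had 123 gated cells, and the share of all genes with WT5 that low was not counted. With WT5 added to the WT group, 0 of 8 members and 0 of all genes were called by limma (*Rad21* -0.71, adjusted p = 0.663), with 3 members and 593 genes at an unadjusted p under 0.05. With the 8 libraries that had enough cells, which leaves out WT1, *Rad21* was at -0.59 (adjusted p = 0.717). In this class all 3 same-numbered pairs of WT and KO libraries deviated together, as did 4 of 13 differently numbered pairs, and with the replicate number as a block, over the 6 libraries numbered 2, 4 and 5, 0 of 8 members were called (*Rad21* -0.61, adjusted p = 0.658; 5 members under an unadjusted p of 0.05). WT4, WT5, KO4 and KO5 were deposited as counts and the other libraries as log values. Each pair that deviated together was deposited in the same form. Within the count files WT4 was above both KO libraries for 8 of 8 members (48.5% of all genes), and WT4 and WT5 together for 2 (17% of all genes). Within the log files WT2 and WT3 were above KO1 and KO2 for 2 of 8 (28% of all genes). Leaving out KO4 or KO5 leaves 1 KO library, which is then assumed to vary like the WT libraries. Among the 5 compared libraries, *Rad21*, *Smc1a* and *Smc3* kept their calls without each library in turn. *Nipbl* lost its call without WT3, KO4 or KO5, *Ctcf* without KO4 or KO5, and *Stag1* and *Stag2* without KO5.

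The genes that set the cycling gate differed in the same libraries. The summed level of the 12 cycling genes in gated cells was 91.0, 93.3 and 69.7 in the WT, 33.8 and 30.2 in the KO libraries and 24.9 in WT5, and all 12 were lower in both KO libraries without overlap (2-sided exact permutation p = 0.1 for the sum, the smallest that 3 against 2 libraries allow). *Top2a* was at 14.0, 10.6 and 6.85 against 2.43 and 1.72. The 5 glutamatergic genes summed to 5.37 to 7.05 in the WT and 11.8 to 12.3 in the KO libraries. The 7 haemoglobin genes summed to 4.48 to 7.005 in the WT, 24.9 and 61.5 in the KO libraries and 42.7 in WT5, and the 4 of them tested were called higher in the KO libraries, with *Hbb-bs* at 2.97, 3.34 and 2.33 against 12.8 and 29.4 (log2 difference 2.57 ± 0.34, SE, adjusted p = 0.00405). The 8 microglia genes summed to 0.0296 to 0.0739 against 0.257 to 0.641, with 8 of 8 higher, and the 8 endothelial genes to 0.206 to 0.364 against 0.493 to 1.26, with 5 of 8 higher. Gated cells with UMIs of at least 2 of 6 Dlx and Gad genes numbered 51 of 154, 62 of 195 and 233 of 484 in the WT and 24 of 362 and 8 of 162 in the KO libraries. In the gated cells without a UMI of any of the 6, which numbered 73, 109 and 157 in the WT and 236 and 107 in the KO libraries, 7 of 8 members were lower in both KO libraries without overlap, against 27.1% of all genes, with *Rad21* at 2.56, 2.22 and 1.61 against 0.989 and 0.811. In these cells WT5 (71 cells) was below all compared WT libraries for 8 of 8 members, with *Rad21* at 0.691. The share of all genes with WT5 that low was not counted. KO1 was above all compared WT libraries there for *Ctcf*, *Smc1a*, *Stag1* and *Stag2*. It was below all of them for *Rad21*, *Smc3* and *Wapl* and inside their range for *Nipbl*. With a gate of 6 cycling genes, *Rad21*, *Smc1a*, *Smc3* and *Stag1* were called. The part of the makeup of the gate and of transcripts of blood and other cells in the members' differences was not tested.

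**Figure D4:**
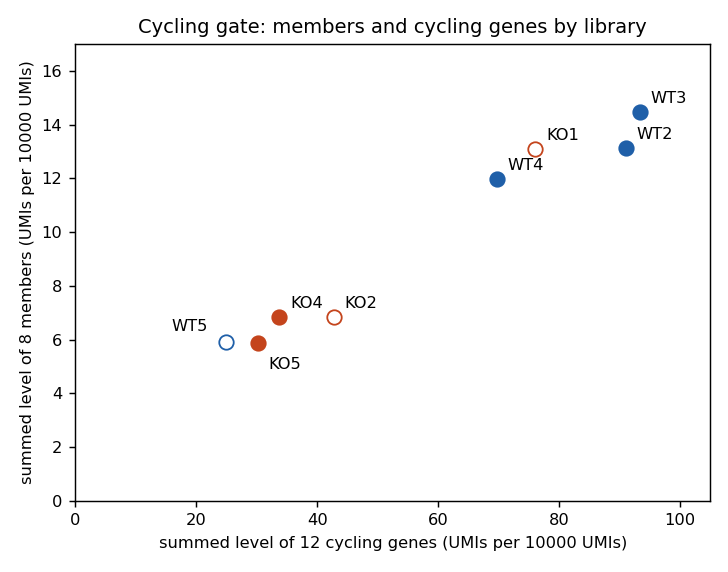
Summed level of the 8 members (y axis) against that of the 12 genes that define the cycling gate (x axis), both in UMIs per 10000 UMIs, in gated cells of each library; filled symbols are the compared libraries. KO4, KO5, WT5 and KO2 sit at 5.86 to 6.85 on the y axis and at most 42.8 on the x axis, and the other 4 libraries at 11.96 to 14.5 and at least 69.7.

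**Figure D5:**
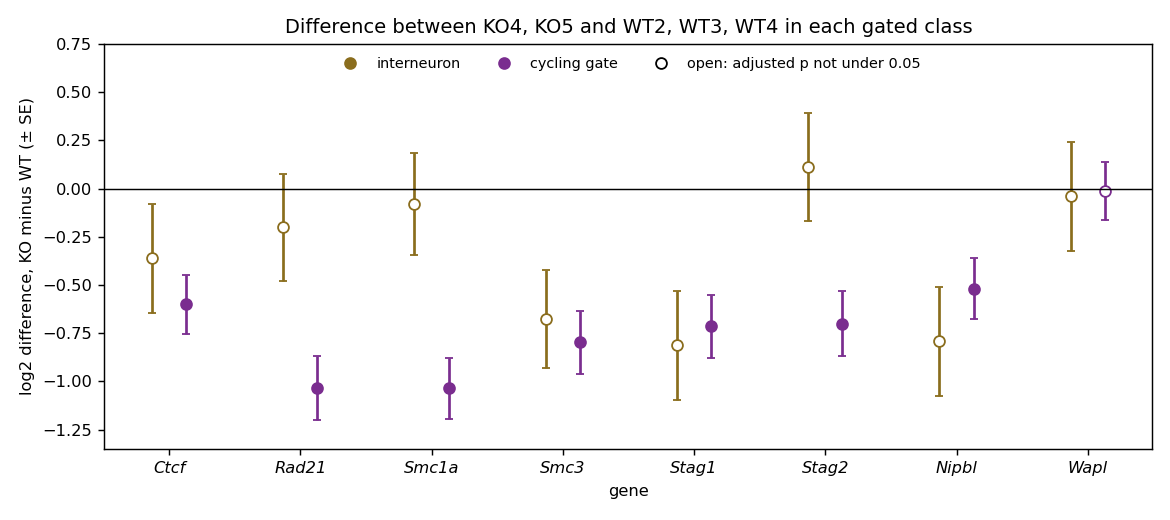
Log2 difference, KO minus WT, of each member (y axis, with SE) in interneurons and in cells of the cycling gate, from limma on log2(level + 0.5); filled points have an adjusted p under 0.05. The 7 filled points are all in the cycling gate, from -0.52 (*Nipbl*) to -1.04 (*Smc1a*), and *Wapl* is near 0 there; whether the differences of the classes differ was not tested.

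*Smc3* and *Nipbl* were the members that were lower in the KO libraries in the largest number of classes. Of the 6 classes with enough cells in all 5 libraries, both KO libraries were below all WT libraries in 6 for *Smc3*, in 5 for *Nipbl*, in 4 each for *Stag1* and *Stag2*, in 3 for *Smc1a*, in 2 each for *Ctcf* and *Rad21* and in 0 for *Wapl*, which was above in 1, deep layer neurons. WT5 was below all 3 WT libraries in 6 of 6 classes for *Nipbl* and *Smc3*. The share of all genes for which this held was not counted. By class, 6 of 8 members were lower without overlap in radial glia or astrocytes (26.8% of all genes), 4 in intermediate progenitors (23.7%) and 3 in newborn neurons (25.3%). These classes are described by their levels, with no further test. The genes that set the radial glia or astrocyte gate summed in it to 234, 238 and 179 in the WT. They summed to 76.0 and 56.9 in the KO libraries and to 52.2 in WT5. Those of intermediate progenitors summed to 23.6, 22.5 and 18.8 against 13.2 and 9.84. Those of newborn neurons summed to 11.3, 10.5 and 9.38 against 9.53 and 9.59. The part of the makeup of these gates in the members' differences was not tested.

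The share of cells with a UMI moved with depth, so it is given for cells thinned to 1800 UMIs, the smallest total of a kept cell, with the full share beside it. In the cycling gate *Rad21* was found in 31.0% ± 4.57 of WT cells (SD, n = 3) and 15.7% ± 0.417 of KO cells (SD, n = 2) after thinning, and in 59.1% ± 5.48 and 23.4% ± 5.18 before. *Smc1a* was found in 35.3% ± 0.911 and 17.6% ± 2.13 after thinning, and in 61.5% ± 7.25 and 26.2% ± 4.75 before, and *Wapl* in 14.0% ± 3.23 and 13.8% ± 0.359 after thinning, and in 29.2% ± 8.99 and 20.2% ± 1.51 before (SD, n = 3 and n = 2). The thinned differences of *Rad21* and *Smc1a* had a 2-sided exact permutation p = 0.1, the smallest possible here, and that of *Wapl* a p = 1. No class here is known to lack these genes, so free RNA could not be read from a class without them.

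The other genes of the pathway gave 0 calls in interneurons by limma: 0 of 6 tested cohesin partners, 0 of 7 condensin genes, 0 of 6 genes of SMC5/6 and 0 of 5 CTCF partners, with median log2 differences of -0.10, -0.28, 0.0046 and -0.27 against -0.06 for all genes. At an unadjusted p under 0.05 there were 0, 1, 2 and 0 genes of these lists, and edgeR and DESeq2 called 0 in each. In the cycling gate all 8 condensin genes were called lower in the KO libraries, led by the ATPase genes *Smc4* (-1.76) and *Smc2* (-1.61), then *Ncapg* (-1.15), *Ncapd2* (-0.82), *Ncapd3* (-0.79) and *Ncaph2* (-0.71). Of 12 tested cohesin partners 7 were called lower, among them the cohesin acetyltransferase *Esco2* (-1.353), the centromere protectors *Sgo2a* (-1.27) and *Sgo1* (-0.88), *Pds5b* (-0.70), *Cdca5*, which codes for sororin (-0.67), and *Pds5a* (-0.57). Of SMC5/6, 3 of 6 were called lower, *Smc6* (-0.95), *Smc5* (-0.68) and *Nsmce2* (-0.50), and of the CTCF partners 1 of 6, the helicase gene *Ddx5* (-0.61). Adjusted p-values of the called condensin genes ran from 9.20e-07 (*Smc4*) to 0.0285 (*Ncapg2*). edgeR called 7 cohesin partners, 8 condensin genes, 2 genes of SMC5/6 and 0 CTCF partners, and DESeq2 called 5, 7, 2 and 0. No gene of these lists was called higher by limma. Median log2 differences were -0.81, -0.49, -0.37 and -0.25 for condensin, cohesin partners, SMC5/6 and CTCF partners, -0.71 for the members and -0.07 for all genes. Many of these genes are transcribed with the cell cycle.

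The germline members of the complex were nearly without UMIs. *Rec8*, the meiotic kleisin, had UMIs in 116 of 15476 cells (0.750%), *Stag3* in 39 (0.252%) and *Smc1b* in 10 (0.0646%), and *Rad21l* and *Ctcfl* had no row in the 5 compared libraries.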

How the data were processed

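Dissociated cells of E18.5 neocortex were profiled with the Chromium 3′ v2 kit. Per the paper, reads were counted with Cell Ranger on GRCm38 (Ensembl 84) and cells filtered in Seurat; the submitters' processing notes name Cell Ranger 2.1.0, Seurat 2.3.4 and R 3.6.0. The authors deposited UMI counts for WT4, WT5, KO4 and KO5, and for the other libraries the natural log of 1 plus UMIs per 10000, from which 100% of values came out as whole UMIs (within 1e-06). Library totals were 348105 to 29767293 UMIs. Cells with 1000 to 5000 genes, 1800 to 10000 UMIs, under 6% mitochondrial and at most 1% haemoglobin UMIs were kept; the study's own cell types were not used here, and no doublet caller was run, so doublets stay within the gates.

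The replicate is the embryo. Values per library and class were tested with limma 3.58.1 (trend, robust, R 4.3.3) on log2(mean UMIs per 10000 + 0.5), for genes of at least 0.1 in 2 or more libraries, with Benjamini-Hochberg adjustment over all genes tested. Folds on this scale understate the change of low genes. edgeR 4.0.16 and DESeq2 1.42.0 on recovered UMI counts were alternatives, and the test was checked on simulated data. Single values were compared by exact permutation. Python 3.11.15 was used for gating.

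The members and lists were chosen with earlier results of these data known. Named were the members, list genes past the threshold (up to 6 per list by size) and the 5 genes most like *Ctcf* and *Rad21*. Intervals cover counting error only. One class of cells and the comparisons that need it are not reported here.

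For the replicate numbers, the correlations of same-numbered WT and KO libraries, after their group means were taken off, were 0.31, 0.19 and 0.51 in the cycling gate (numbers 2, 4 and 5), so these numbers were treated as pairs there. Differently numbered pairs ran from -0.52 to 0.43, and 4 of 13 were above 0.1, so libraries without a shared number deviated together too. Every pair above 0.1, of the same number or not, joined libraries deposited in the same form, counts or log values. The highest correlation of a pair of unlike form was 0.029 (WT4 and KO1), and WT4 and KO5, both counts, had -0.0091. Whether the number adds to the form of the file was not tested. The labels say that the embryos were littermates, not that a number marks a litter.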

Additional observations from a re-analysis of the deposited data

Results flagged for a closer look

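In the cycling gate of KO1, a library outside the comparison, 2 levels lay above the highest level of WT2, WT3 and WT4 by the lower 95% exact Poisson bound. They were, as UMIs per 10000 summed UMIs, *Smc1a* at 3.41 (132 UMIs, interval 2.86 to 4.05) and *Ctcf* at 1.78 (69 UMIs, interval 1.39 to 2.26). For each member, groups of 4 or more libraries of the same genotype and class were tested for a library far from the rest. Of 64 such groups 5 had one, and chance alone gives about 1 in 20. Among the KO libraries, KO1 was high for *Rad21* (1.54) and *Smc1a* (3.36) in the cycling gate and for *Smc1a* (2.74) in radial glia or astrocytes. That *Rad21* level of KO1 lay below those of WT2, WT3 and WT4 (2.92, 2.45 and 1.997). Among the WT libraries, WT2 was low for *Wapl* (0.257) in intermediate progenitors and WT3 high for *Wapl* (0.828) in newborn neurons.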

How the results depend on the processing

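The number of genes called and the sign of small differences depended on the libraries and the settings. Adding WT5, or all libraries with enough cells, left 0 genes called in interneurons (533 each at an unadjusted p under 0.05, limma) and in the cycling gate (593 and 648). With the replicate number as a block, 1 gene was called in interneurons and 0 in the cycling gate (642 unadjusted). In interneurons only 2 pairs were available, with correlations of 0.15 and 0.023. KO4 and KO5 were the only KO libraries there, so their deviations from the group mean are mirror images. The correlations therefore cannot show whether the numbers mark pairs in interneurons. These block fits take in WT5 and leave out WT3. Without a filter on low values the counts were 0 in interneurons (89 as reported; 791 unadjusted) and 496 in the cycling gate (1298). DESeq2 gave 45 in interneurons and 544 in the cycling gate, and a pseudocount of 0.1 gave 50 in interneurons. Thinning gave 796 in the cycling gate, gating after thinning gave 51 in interneurons and 670 in the cycling gate, and a gate of 6 cycling genes gave 514. Leaving out 1 library gave 17 to 138 in interneurons (138 without WT2, 28 without KO4, 17 without KO5) and 363 to 1621 in the cycling gate (712 without KO4, 363 without KO5). In fits without KO4 or KO5 the spread comes from the WT group alone. The cause was not tested.

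In interneurons *Rad21* was at 0.14 with edgeR, 0.068 with DESeq2 and 0.14 with the block. *Wapl* was at 0.28, 0.30 and 0.23 with edgeR, DESeq2 and gating after thinning and -0.16 to 0.11 with 1 library left out, *Smc1a* at 0.052 after thinning and -0.27 to 0.11 with 1 left out, and *Stag2* at -0.025 when gated after thinning and -0.017 to 0.24 with 1 left out. In the cycling gate *Wapl* was at 0.053 with edgeR, 0.056 with DESeq2, 0.0025 with stricter gates, 0.072 with WT5, 0.12 with the block, 0.073 when gated after thinning and -0.11 to 0.077 with 1 left out. The 7 members called in the cycling gate kept their sign under all 18 alternatives run; besides the losses given above in the report, *Stag2* and *Nipbl* lost their calls without the filter on low values, *Nipbl* with stricter gates, and *Ctcf* and *Nipbl* when cells were gated after thinning. Interneurons under stricter gates were not run because a library had too few cells. Gating after thinning and the gate of 6 cycling genes were chosen after the data were seen. Depth limits interneurons, where 2 UMIs of *Wapl* were counted in WT2.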
